A study of Mus musculus with 46 samples.

Results

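Livers of young mice were examined 2 h after partial hepatectomy (PH), an operation that takes away 70% of the liver. The group consisted of the 3 arrays titled as young liver 2 h after PH, out of 46 arrays in the series, and it was set against the 3 arrays of young liver taken at 0 h without surgery. All mice were males of the CB6F1 hybrid strain, which carries no engineered allele by the labels, and young mice were 5 to 6 months old. Surgery was done under injected avertin and inhaled isoflurane, and the 0 h mice had no surgery, so anaesthesia, incision and liver removal cannot be told apart in this comparison. Further groups used here were young liver 0.5 h, 1 h and 4 h after PH (3 arrays each). Young liver 0.5 h and 2 h after a sham operation (2 arrays each) was also used. So was old liver (25 to 27 months) 2 h after PH and at 0 h (3 arrays each). Old mice were bought from another supplier than young mice, so age and supplier cannot be told apart. RNA of whole liver was labelled and measured on Affymetrix arrays of the type Murine Genome U74 Version 2, and the values are log2 expression values made by robust multi-array average (RMA), on which 1 unit is a 2-fold difference. The labels name the arrays as replicates and do not say that different animals were used, so p-values here describe only the array-to-array spread, part of which may be technical.

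The remnant liver regrows by division of its mature hepatocytes. Cytokines such as TNF and IL-6, growth factors and metabolic load act on hepatocytes within the first hours, and these cells leave quiescence through a burst of immediate early genes, whose transcription needs no new protein synthesis. The products of these genes are mostly transcription factors and the inhibitors that later shut the same signals off. Hepatocytes at the same time keep making glucose and plasma proteins for the body, under the control of liver-enriched transcription factors.

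The 6 arrays compared were close to each other, with Pearson correlations across probe sets of 0.9847 to 0.9958. The arrays of sham-operated mice stood apart: the first principal component of all 46 arrays held 26.8% of the variance, the 16 sham arrays scored 7.75 to 30.3 on it, and the highest of the other arrays, young 0 h replicate 3, scored 6.27. That 0 h array also had a beta-actin 3′ control value of 10.76, against 12.67 and 12.59 in the other 0 h arrays and 12.56 to 12.69 in the PH arrays. The mean of 9 spike-in control probe sets was 8.54, 8.05 and 9.05 in the PH arrays and 9.18, 10.43 and 8.79 in the 0 h arrays, and its part in the results was not tested beyond a fit with it as a covariate. Of 6 listed hepatocyte markers 4 were measured, with summed signals of 34438 to 37521 in PH arrays and 36849 to 38732 in 0 h arrays on the linear scale. Among them albumin (Alb) differed by -0.35 (limma adjusted p = 0.0171), a call lost without 0 h replicate 1 (0.0561), 0 h replicate 2 (0.147) or PH replicate 2 (0.158). Ttr, Apoa1 and Ahsg, which encode plasma proteins, differed by -0.04, 0.15 and 0.05 without passing, and the median of the 4 was 0.01. Summed markers of Kupffer cells were 929 to 1072 after PH and 856 to 1006 at 0 h, and those of neutrophils 1046 to 1145 and 938 to 1062, with none of the 8 markers of each type past the threshold. The RMA values hold no true zero and no detection call, so absence of a cell type cannot be read from them. In whole liver, fewer cells of a type and less RNA per cell cannot be told apart.

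Of 12422 probe sets tested, 218 (1.75%) were higher and 278 (2.24%) were lower 2 h after PH than at 0 h (limma adjusted p under 0.05). With each gene given by its probe set of highest mean, 157 genes were higher and 207 lower. The increases were larger than the decreases: 95 of the higher probe sets and 13 of the lower ones differed by more than 1 log2 unit, and the median difference over all probe sets was -0.04. The genes at the top were metallothioneins, Igfbp1, immediate early transcription factors and feedback inhibitors, and among the lowest were Actb and the transcriptional regulators Id2, Foxa2, Cited2, Tsc22d1 and Hhex. The split between higher and lower depended on the scaling, with 268 higher and 190 lower when each array was centred on its median, and 244 and 208 in a fit of the compared groups only. The total of 496 became 249 without 0 h replicate 1, 290 without 0 h replicate 2, 316 without PH replicate 1, 292 without PH replicate 2 and 2103 when arrays were weighted by their quality. Of the 75 named genes that passed, 47 passed without any single array and in all other settings that kept their probe set. Where a call of this comparison ended without 1 array, this is given with the gene.

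**Figure D1:**
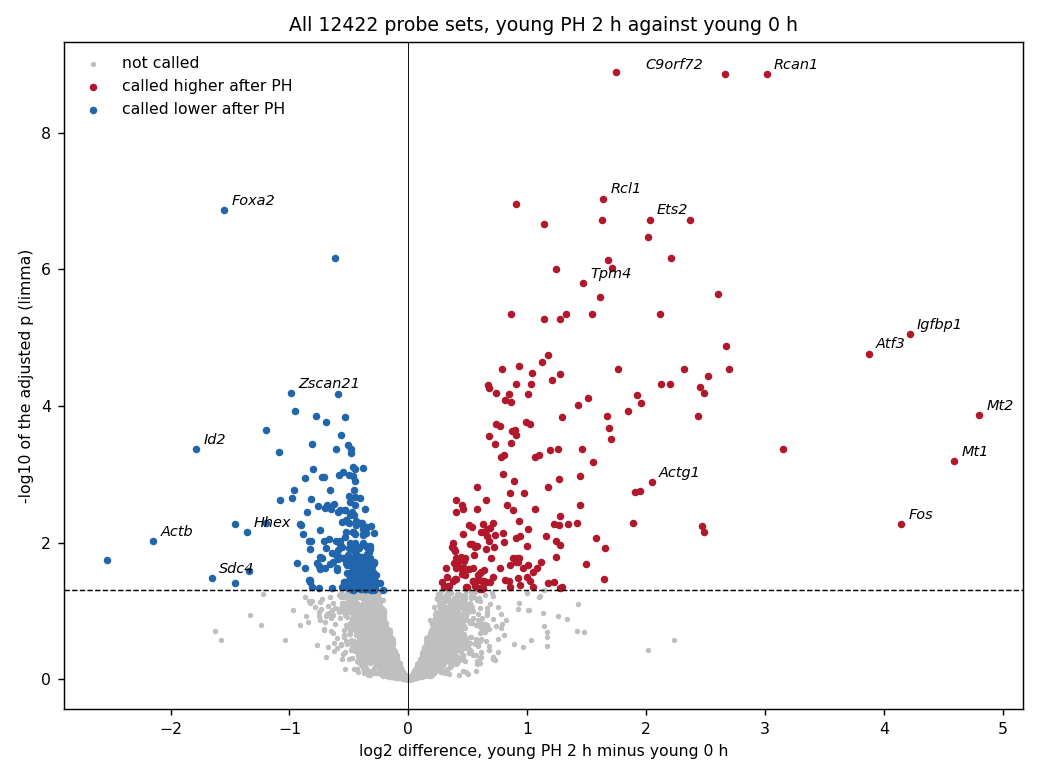
All 12422 probe sets in young liver 2 h after PH against 0 h (3 arrays each). The x axis gives the log2 difference, the y axis the negative log10 of the limma adjusted p, and the dashed line the threshold of 0.05. The 218 higher probe sets reach up to 4.80 log2 units, and Foxa2 has the smallest adjusted p on the lower side.

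The metallothioneins, small cysteine-rich proteins that bind zinc and copper and are induced in liver by metals, glucocorticoids and cytokines, showed the largest increases. Mt2 had log2 values of 12.72, 12.71 and 12.82 after PH, against 7.79, 7.70 and 8.35 at 0 h. The difference was 4.80 ± 0.78 (SE; limma adjusted p = 0.000136), a 27.9-fold higher level, with wide separation of the groups. Mt1 had 12.81, 12.81 and 12.54 after PH, against 7.75, 7.81 and 8.82 at 0 h, a difference of 4.59 ± 0.84 (limma adjusted p = 0.000643). The mean of Mt2 ran through 7.95 at 0 h, 9.36 at 0.5 h, 12.10 at 1 h, 12.75 at 2 h and 13.40 at 4 h after PH, so most of the increase was present by 1 h. In sham-operated livers of 2 h, Mt2 was at 12.92 and 12.98, above all 3 PH arrays, and PH differed from sham by -0.20 ± 0.88 (adjusted p = 0.911). Of 15 measured genes of metal and oxidative stress, 3 were higher and 0 lower (2 and 0 without PH replicate 1), with a list median of 0.02, beside 1.75% and 2.24% of all probe sets. The third was Hmox1, the haem-degrading enzyme, at 11.30, 9.47 and 9.93 after PH, against 9.09, 8.95 and 8.95 at 0 h (1.24 ± 0.29, adjusted p = 0.00953). It was carried by PH replicate 1, without which its adjusted p was 0.154.

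The promoters of both metallothionein genes are shown because these are the most induced genes and their regulatory element is well characterised. Each window covers 250 bases before to 50 bases after a transcription start in RefSeq (build GRCm38.p6). Windows of Rcan1 and Btg2 were added because, among the 15 highest genes, theirs were the other windows with a match. Capitals mark matches to a form of the metal response element (MRE, TGCACNC), the cAMP response element (CRE, TGACGTCA) and the AP-1 site (TGANTCA). Both strands were searched, and no match overlapped another. The MRE form with G in place of A, TGCGCNC, was not searched. It stands in lower case where present, as in the Mt2 and Mt1 windows. A CArG box, the serum response factor site, was also searched and is absent from the 4 windows printed. The Mt2 window lies at chr8:94172368-94172667 on the + strand, with MREs starting 223 and 50 bases before the start and an AP-1 site 79 bases before it. The Mt1 window lies at chr8:94178839-94179138 on the + strand, with MREs 23 bases before and 2 bases after the start. The Rcan1 window is that of the second of its starts, at chr16:92400029-92400328 on the - strand, with a CRE 175 and an AP-1 site 110 bases before the start, while the window of its first start, at chr16:92466120-92466419, holds no match. The Btg2 window lies at chr1:134079106-134079405 on the - strand, with a CRE 166 bases before the start.
Mt2: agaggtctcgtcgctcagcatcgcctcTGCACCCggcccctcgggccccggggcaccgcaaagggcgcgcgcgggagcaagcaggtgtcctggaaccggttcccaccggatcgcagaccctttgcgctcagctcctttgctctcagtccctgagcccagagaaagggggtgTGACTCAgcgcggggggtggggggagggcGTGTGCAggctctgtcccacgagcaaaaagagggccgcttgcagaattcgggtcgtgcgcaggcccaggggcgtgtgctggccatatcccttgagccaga
Mt1: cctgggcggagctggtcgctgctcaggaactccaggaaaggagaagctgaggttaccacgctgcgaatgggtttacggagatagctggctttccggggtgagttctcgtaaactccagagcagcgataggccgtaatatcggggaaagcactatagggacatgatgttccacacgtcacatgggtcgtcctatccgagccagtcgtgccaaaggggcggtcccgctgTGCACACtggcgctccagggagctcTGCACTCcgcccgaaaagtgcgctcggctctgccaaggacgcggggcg
Rcan1: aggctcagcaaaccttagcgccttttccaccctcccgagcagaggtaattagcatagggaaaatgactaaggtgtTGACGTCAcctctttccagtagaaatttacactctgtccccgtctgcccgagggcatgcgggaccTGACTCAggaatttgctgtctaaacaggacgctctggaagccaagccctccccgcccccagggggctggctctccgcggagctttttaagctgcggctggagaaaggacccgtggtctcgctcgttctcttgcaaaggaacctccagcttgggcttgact
Btg2: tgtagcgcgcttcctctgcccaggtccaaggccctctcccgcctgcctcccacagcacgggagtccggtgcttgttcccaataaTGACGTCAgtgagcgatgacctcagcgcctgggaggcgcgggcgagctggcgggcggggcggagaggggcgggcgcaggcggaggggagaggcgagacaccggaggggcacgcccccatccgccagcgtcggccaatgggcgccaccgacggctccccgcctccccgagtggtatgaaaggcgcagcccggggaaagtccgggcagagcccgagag
Of the 157 genes called higher, 125 matched the RefSeq table, with 160 promoters, against 6576 of the 8251 genes tested, with 8412 promoters. An MRE of the searched form was held by 15 promoters of the higher genes (9.38%) and by 13.1% of the promoters of all genes tested. A CRE was held by 10 (6.25%) and 2.6%. An AP-1 site was held by 12 (7.5%) and 6.24%, and a CArG box by 3 (1.88%) and 1.59%. In the whole table of 32851 promoters, the shares were 12.6%, 1.79%, 7.81% and 1.63%. The shares are descriptions of these windows and were not tested. A missing match says only that the letters are not in the window, as for Igfbp1, Fos and Atf3.

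Immediate early transcription factors, which link incoming signals to later transcription, held the largest group of increases. Of 30 measured members, 16 were higher and 1 was lower, against 1.75% and 2.24% of all probe sets, with a list median of 0.81. The 16 became 14 without 0 h replicate 3, 13 without PH replicate 1 and 13 when the spike-in signal was a covariate. Fos, the AP-1 subunit, had 8.84, 8.38 and 7.48 after PH, against 4.35, 4.36 and 3.56 at 0 h (4.14 ± 0.92, adjusted p = 0.00536). Its groups did not overlap, although a second probe set differed by -0.31 and was not past the threshold. Atf3, a stress-induced repressor of the ATF family, had 10.45, 10.33 and 9.36 after PH, against 6.17, 6.25 and 6.10 at 0 h (3.87 ± 0.55, adjusted p = 1.71e-05). Of its 3 probe sets 2 passed and the other differed by 0.00. All 3 carry a letter suffix, and that of the probe set used marks sequence shared within a gene family. Nr4a1, an orphan nuclear receptor induced by cAMP, had 8.30, 9.42 and 7.97 after PH, against 5.91, 6.02 and 6.21 at 0 h (2.52 ± 0.37, adjusted p = 3.58e-05). Both genes were separated from 0 h in every array. Egr1, a zinc-finger factor induced by mitogens, had 9.73, 9.43 and 9.13 after PH, against 6.82, 7.31 and 6.70 at 0 h (2.49 ± 0.57, adjusted p = 0.00709; its second probe set differed by -0.10).

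Ets2 and Maff, an ETS factor and a small MAF protein, were 2.03 ± 0.22 (adjusted p = 1.86e-07) and 2.02 ± 0.23 (adjusted p = 3.32e-07) higher, and both are described below with the times. The proto-oncogene Myc had 6.93, 5.46 and 5.35 after PH, against 5.44, 4.79 and 3.67 at 0 h. Its groups overlapped, and its difference of 1.28 ± 0.38 (adjusted p = 0.047) was no longer past the threshold without 0 h replicate 2 (0.0904), 0 h replicate 3 (0.282) or PH replicate 1 (0.335). Jun, the partner of Fos, was 0.88 ± 0.22 higher (adjusted p = 0.0168), a call that ended without 0 h replicate 2 (0.0837) or PH replicate 1 (0.167). The other 8 increases were between 0.39 for Nr4a2 and 2.11 for Klf6, both named after their values were seen. The call of Nr4a2 ended without 0 h replicate 1 (0.0665), 0 h replicate 2 (0.0504) or PH replicate 2 (0.203), and its second probe set did not pass. Id2, a helix-loop-helix protein that blocks differentiation factors, was the member that fell. It had 8.91, 7.98 and 7.99 after PH, against 10.55, 10.66 and 9.02 at 0 h, a difference of -1.78 ± 0.32 (adjusted p = 0.000429), without overlap.

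**Figure D2:**
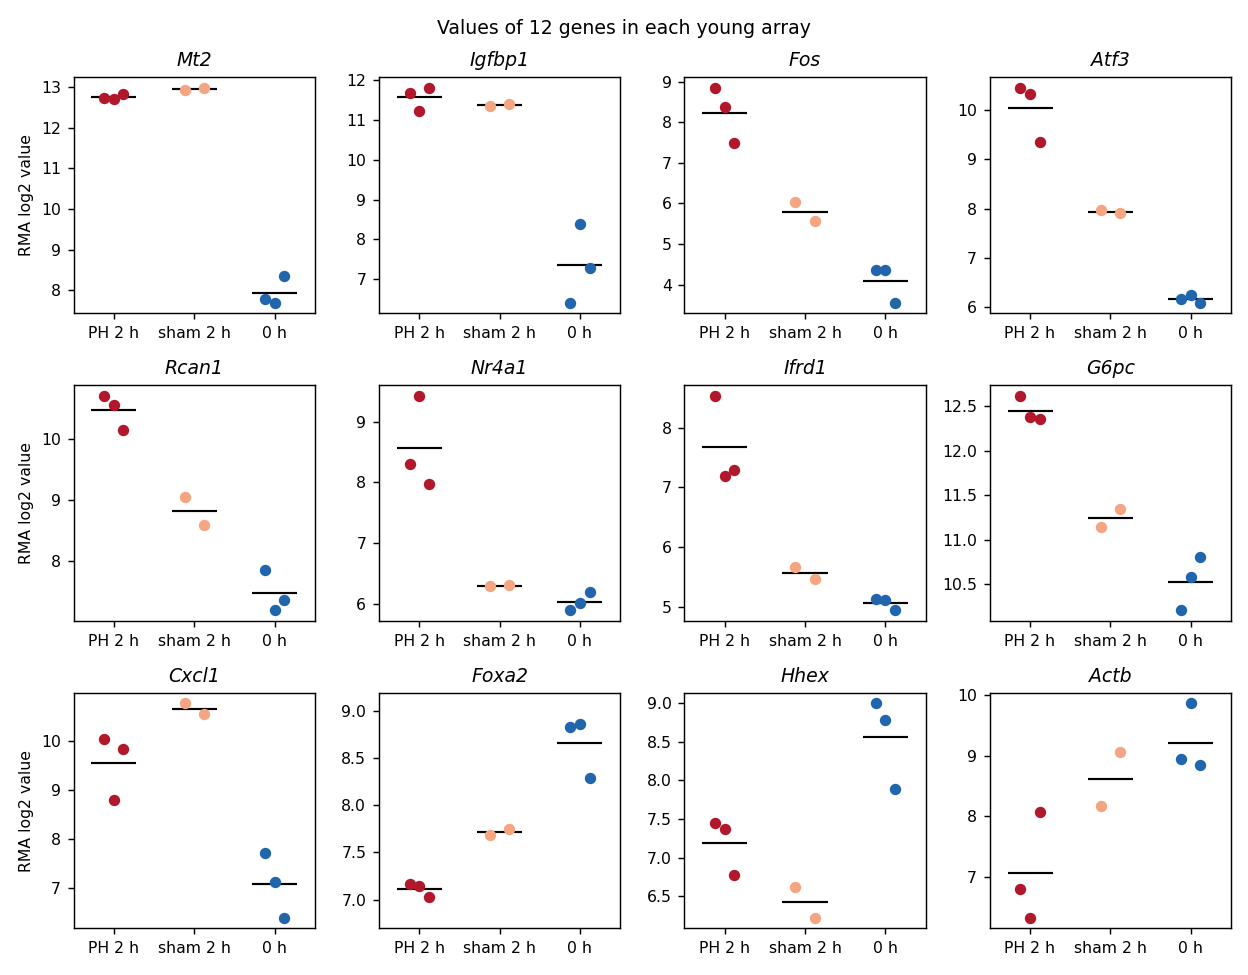
RMA log2 values of 12 genes in each young array 2 h after PH (3 arrays), 2 h after sham surgery (2 arrays) and at 0 h (3 arrays), with a line at each group mean; the y axes differ and do not start at 0. The sham arrays lie beside the PH arrays for Mt2 and Igfbp1, while Fos, Atf3, Rcan1, Nr4a1 and Ifrd1 are higher after PH than after sham surgery in every array, and Foxa2 is lower after PH than in either other group.

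The early feedback regulators, which limit the same signals, had 9 of 27 measured members higher and 1 lower, beside 1.75% and 2.24% of all probe sets, with a list median of 0.60. The 9 became 7 without PH replicate 1, without PH replicate 2 or with the spike-in covariate. Rcan1, the inhibitor of the phosphatase calcineurin, had 10.72, 10.57 and 10.16 after PH, against 7.85, 7.20 and 7.37 at 0 h. This difference of 3.01 ± 0.26 (adjusted p = 1.38e-09), an 8.08-fold higher level, was large beside the spread in either group. Gadd45a, a stress-induced growth arrest gene, had 9.10, 7.77 and 7.94 after PH, against 5.69, 5.71 and 5.40 at 0 h (2.67 ± 0.37, adjusted p = 1.31e-05). Dusp6, the phosphatase that inactivates ERK, had 10.53, 9.73 and 9.77 after PH, against 6.99, 7.88 and 7.88 at 0 h (2.43 ± 0.40, adjusted p = 0.000142; 1 of 2 probe sets). All 3 genes were higher in every PH array. Btg2, an antiproliferative p53 target, had 10.86, 11.53 and 10.57 after PH, against 8.49, 8.68 and 8.84 at 0 h (2.32 ± 0.34, adjusted p = 2.86e-05). The lower member was Cited2, a CBP/p300-binding inhibitor of hypoxia signalling. It had 6.53, 6.09 and 5.90 after PH, against 8.43, 7.68 and 6.78 at 0 h (-1.46 ± 0.32, adjusted p = 0.00534), groups that did not overlap, and its adjusted p was 0.0962 without 0 h replicate 1.

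Genes outside these lists were also among the highest. C9orf72, whose protein acts in autophagy and lysosomal traffic, had 8.61, 8.87 and 8.39 after PH, against 6.18, 6.07 and 5.65 at 0 h (2.66 ± 0.23, adjusted p = 1.38e-09). Ifrd1, a stress-induced transcriptional coregulator, had 8.53, 7.18 and 7.28 after PH, against 5.13, 5.11 and 4.95 at 0 h (2.60 ± 0.33, adjusted p = 2.27e-06). Both separated completely from 0 h. Tiparp, an ADP-ribosyltransferase induced through the aryl hydrocarbon receptor, had 8.55, 9.12 and 8.41 after PH, against 6.44, 6.51 and 6.49 at 0 h (2.21 ± 0.26, adjusted p = 6.74e-07). Slc20a1, a sodium-phosphate cotransporter, had 8.76, 8.74 and 8.90 after PH, against 6.35, 6.52 and 6.96 at 0 h (2.20 ± 0.33, adjusted p = 4.8e-05), again without overlap.

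Inflammatory signalling genes were counted in 3 lists, beside 1.75% and 2.24% of all probe sets. In the list of TNF, NF-kB and chemokine genes, 4 of 32 measured members were higher and 0 lower (median 0.23), in that of IL-6 and STAT signalling 2 of 22 were higher and 0 lower (median 0.05), and of 23 acute phase proteins 0 passed in either direction in limma (median 0.11). The counts were 3 and 1 for the first pair of lists without PH replicate 1, and no acute phase gene passed without 0 h replicate 3, PH replicate 1 or PH replicate 2 or with the spike-in covariate. Cxcl1, a neutrophil-attracting chemokine, had 10.03, 8.79 and 9.83 after PH, against 7.71, 7.13 and 6.39 at 0 h (2.47 ± 0.55, adjusted p = 0.00574), and both of its probe sets passed. Tnfrsf1b, a TNF receptor, had 8.18, 8.73 and 8.14 after PH, against 6.42, 6.67 and 6.93 at 0 h (1.68 ± 0.20, adjusted p = 7.32e-07). Il1a, the interleukin 1 alpha gene, was 0.90 ± 0.14 higher (adjusted p = 4.8e-05). The NF-kB coregulator Nfkbiz differed by 1.29 with 1 of 2 probe sets (adjusted p = 0.0444; the other at -0.03), and this call ended without any 1 of the 6 arrays (0.0795 to 0.141).

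Socs3, which shuts off IL-6 signalling, had 7.96, 7.62 and 7.74 after PH, against 6.68, 6.40 and 6.40 at 0 h (1.28 ± 0.31, adjusted p = 0.011). Its groups did not overlap, but the adjusted p was 0.0512 without 0 h replicate 2 and 0.0589 without PH replicate 1. Pim3, a STAT-induced survival kinase, was 1.51 ± 0.24 higher (adjusted p = 7.75e-05). The acute phase genes with the largest differences did not pass. Lcn2, the iron-scavenging lipocalin 2, had 6.95, 6.29 and 7.24 after PH, against 4.57, 4.94 and 4.92 at 0 h (2.02 ± 1.16, adjusted p = 0.378), and the serum amyloid gene Saa2 differed by 2.24 ± 1.07 (adjusted p = 0.266). For both genes the groups did not overlap, and the standard error comes from the spread over all 18 groups. The neutrophil markers S100a8 and S100a9 differed by 1.48 (adjusted p = 0.201) and 1.17 (adjusted p = 0.206), also without overlap of the groups. The other neutrophil markers measured ranged from -0.09 for Ltf to 0.09 for Mpo, and the median of all 8 was -0.01. The part of such cells in the inflammatory genes was not tested.

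Among 38 measured growth factors, receptors and binding proteins, 2 were higher and 2 lower (median 0.02), beside 1.75% and 2.24% of all probe sets. Igfbp1, the insulin-repressed hepatocyte protein that binds insulin-like growth factors, had 11.69, 11.23 and 11.81 after PH, against 6.41, 8.39 and 7.28 at 0 h. The difference was 4.21 ± 0.57 (adjusted p = 8.97e-06), or 18.6-fold, and every PH array lay above every 0 h array. It was seen with 1 of 2 probe sets, and this probe set carries a suffix for sequence shared within a gene family. Inhbb, a subunit of activin B, was 1.27 ± 0.17 higher (adjusted p = 5.25e-06). Inhbe, the hepatocyte subunit of activin E, differed by -0.60 (adjusted p = 0.0238) and lost its call without 0 h replicate 1, 0 h replicate 2, PH replicate 1 or PH replicate 2 (up to 0.113). Sdc4, the heparan sulphate proteoglycan syndecan 4, differed by -1.65 ± 0.46 (adjusted p = 0.0336) and lost its call without 0 h replicate 2, 0 h replicate 3, PH replicate 1 or PH replicate 2 (up to 0.259). Both decreases also lost their calls with the spike-in covariate (0.0953 for Inhbe and 0.165 for Sdc4). The hepatocyte growth factor gene Hgf differed by 0.05 and its receptor gene Met by -0.00, neither past the threshold. Hgf had low values, 2.995, 2.991 and 2.993 after PH, against 2.97, 3.02 and 2.84 at 0 h. Little can be read from its difference at that level.

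Genes of gluconeogenesis, fasting and hormone response had 5 of 21 measured members higher and 0 lower (median 0.22), beside 1.75% and 2.24% of all probe sets. The 5 became 4 without 0 h replicate 3 or PH replicate 1, 2 without PH replicate 2 and 3 when the spike-in signal was a covariate. G6pc, the last enzyme of glucose output, had 12.62, 12.37 and 12.35 after PH, against 10.21, 10.57 and 10.80 at 0 h (1.92 ± 0.30, adjusted p = 6.96e-05). Cebpb, a bZIP factor that acts in regeneration and glucose output, had 10.94, 11.11 and 11.07 after PH, against 9.39, 9.71 and 9.62 at 0 h (1.46 ± 0.26, adjusted p = 0.000422). Neither gene overlapped between groups. Its relative Cebpd was 1.66 ± 0.40 higher (adjusted p = 0.0122), a call lost without 0 h replicate 1 (0.0592), 0 h replicate 2 (0.0747) or PH replicate 2 (0.0601). Tat, the tyrosine aminotransferase, was 0.71 higher (adjusted p = 0.0316) and passed in only 1 of the fits without 1 array, that without 0 h replicate 3. The fifth was Irs2, the insulin receptor substrate, at 0.41 (adjusted p = 0.0192), named after its value was seen, and its call held only without 0 h replicate 1 or PH replicate 1 among the fits without 1 array (otherwise up to 0.106). Pck1, the rate-limiting enzyme of gluconeogenesis, differed by 0.15 (adjusted p = 0.764).

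In the circadian clock list, 2 of 14 measured genes were higher and 0 lower (median 0.18), beside 1.75% and 2.24% of all probe sets. The counts were 2 and 1 without 0 h replicate 3, and 1 and 0 without PH replicate 2. Cry2, a repressor of the clock, had 7.65, 7.66 and 7.60 after PH, against 6.64, 6.82 and 6.86 at 0 h (0.87 ± 0.11, adjusted p = 4.49e-06). The groups were far apart for their spread. Per2, a repressor that glucocorticoids also induce, had 4.27, 5.06 and 4.56 after PH, against 3.80, 3.53 and 3.83 at 0 h (0.91 ± 0.21, adjusted p = 0.00861), with an adjusted p of 0.0645 without 0 h replicate 2 and 0.106 without PH replicate 2. The labels used here give no hour of the day for the livers.

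Liver-enriched transcription factors, which maintain the hepatocyte programme, had calls on the lower side. Of 23 measured members, 0 were higher and 5 were lower, beside 1.75% and 2.24% of all probe sets, with a median of -0.21. The 5 became 6 without 0 h replicate 3, and 3 without PH replicate 2 or with the spike-in covariate. Foxa2, a forkhead pioneer factor of hepatocytes, had 7.16, 7.14 and 7.03 after PH, against 8.83, 8.86 and 8.29 at 0 h (-1.55 ± 0.16, adjusted p = 1.36e-07). Hhex, a homeobox factor, had 7.45, 7.37 and 6.77 after PH, against 8.996, 8.79 and 7.89 at 0 h (-1.36 ± 0.31, adjusted p = 0.0071). Neither gene overlapped between groups, yet the call of Hhex ended without 0 h replicate 1 (0.0789), 0 h replicate 2 (0.0503) or PH replicate 3 (0.0597). Foxa1 had 6.73, 5.89 and 5.94 after PH, against 8.29, 8.05 and 6.26 at 0 h, groups that overlapped (-1.34 ± 0.36, adjusted p = 0.0266). Its call ended without 0 h replicate 1 (0.23), 0 h replicate 2 (0.164), PH replicate 2 (0.127) or PH replicate 3 (0.106).

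Cebpa, the antiproliferative C/EBP factor of mature hepatocytes, had 10.91, 10.67 and 10.18 after PH, against 11.08, 11.39 and 11.60 at 0 h (-0.77 ± 0.20, adjusted p = 0.0198). It lost its call without 0 h replicate 2 (0.0747), 0 h replicate 3 (0.0955) or PH replicate 3 (0.157). The nuclear receptor gene Nr2f2 differed by -0.83 (adjusted p = 0.0376; 1 of 2 probe sets) and lost its call without 0 h replicate 1 (0.11), 0 h replicate 2 (0.176), PH replicate 2 (0.0829) or PH replicate 3 (0.165). Of the 5, only Foxa2 held its call in each of the 6 fits without 1 array. Other transcription-related genes among the lowest were the CXXC zinc-finger gene Cxxc5, which differed by -1.08 (adjusted p = 0.00235), and the zinc-finger genes Zscan21 (-0.99, adjusted p = 6.53e-05, 1 of 2 probe sets) and Zfp62 (-0.98, adjusted p = 0.00223). Amotl2, an angiomotin that binds the growth regulator YAP, differed by -1.20 ± 0.20 (adjusted p = 0.000221). Tsc22d1, a leucine zipper protein, differed by -1.45 (adjusted p = 0.0388), a call held only without 0 h replicate 3 among the fits without 1 array (otherwise up to 0.17).

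Genes of the cytoskeleton and cell junctions had 6 of 27 measured members higher and 2 lower (median 0.06), beside 1.75% and 2.24% of all probe sets. The counts were 5 and 3 without 0 h replicate 3, 5 and 1 without PH replicate 1, and 5 and 0 without PH replicate 2, with 1 lower under the spike-in covariate. Actg1, the gamma actin of nonmuscle cells, had 11.55, 11.24 and 11.59 after PH, against 9.34, 9.39 and 9.50 at 0 h (2.05 ± 0.40, adjusted p = 0.00132). Actb, the beta actin, had 6.80, 6.33 and 8.08 after PH, against 8.94, 9.86 and 8.84 at 0 h (-2.15 ± 0.51, adjusted p = 0.00952), and its second probe set differed by -2.53 (adjusted p = 0.0179). The actins of nonmuscle cells thus separated in opposite directions without overlap. The Actb value is from a probe set with a suffix for sequence shared within a family, and its call ended without 0 h replicate 2 (0.0818), PH replicate 1 (0.0504) or PH replicate 2 (0.0886). The beta-actin 3′ control of the array did not move this way, at 12.68, 12.69 and 12.56 after PH against 12.67, 12.59 and 10.76 at 0 h. Tpm4, a tropomyosin, was 1.47 ± 0.18 higher (adjusted p = 1.59e-06), Krt8, the keratin of hepatocytes, 1.42 ± 0.31 (adjusted p = 0.00513) and Gja1, a connexin, 1.27 ± 0.24 (adjusted p = 0.00118; 1 of 2 probe sets). Rdx, the membrane-actin linker radixin, differed by -0.52 (adjusted p = 0.0198), a call lost without 0 h replicate 1, 0 h replicate 2, PH replicate 2 or PH replicate 3 (up to 0.133).

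Krt19, a keratin of bile duct cells, had 6.66, 5.83 and 6.10 after PH, against 5.06, 4.87 and 4.94 at 0 h (1.24 ± 0.15, adjusted p = 9.96e-07; 1 of 2 probe sets). Every PH array lay above every 0 h array, and the gene appears here because of its age difference, given below. The other bile duct markers Krt7 and Epcam differed by 0.00 and -0.13, neither past the threshold. The summed signal of the bile duct markers was 107 to 149 after PH and 77 to 83 at 0 h, and the part of such cells in the Krt19 value was not tested.

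Of 34 measured genes of ribosome biogenesis, 2 were higher and 1 lower (median 0.05), beside 1.75% and 2.24% of all probe sets. Rcl1, a nucleolar factor of ribosomal RNA processing, had 10.82, 10.91 and 10.72 after PH, against 8.80, 9.12 and 9.61 at 0 h (1.64 ± 0.17, adjusted p = 9.16e-08). The polymerase subunit gene Polr1c differed by -0.65 with 1 of 2 probe sets (adjusted p = 0.00319; the other at -0.13), and Fbl, the fibrillarin gene, by 0.28 (adjusted p = 0.0376), a call lost without 0 h replicate 1, 0 h replicate 2, PH replicate 1 or PH replicate 2 (up to 0.201). Of 32 cell cycle genes, 1 was higher and 1 lower (median -0.00). Mdm2, the p53 ubiquitin ligase, was 0.67 ± 0.12 higher (adjusted p = 0.000276), and Rrm1, a ribonucleotide reductase subunit, differed by -0.30 with 1 of 2 probe sets (adjusted p = 0.0343), a call that held without PH replicate 1 or PH replicate 2 but not without any other single array (up to 0.209). The G1 cyclin gene Ccnd1 was at a difference of 0.22 (adjusted p = 0.569) and the cell cycle inhibitor Cdkn1a at 0.26 (adjusted p = 0.208).

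Other metabolic and stress lists had 0 or 1 call each, beside 1.75% and 2.24% of all probe sets. The hypoxia and glycolysis list had 1 of 12 members higher, the glucose transporter Slc2a1 (0.68 ± 0.16, adjusted p = 0.00949; 0.0531 without PH replicate 2), and the cytochrome P450 list had 1 of 20 higher. The P450 gene was Cyp2b10, a drug-inducible enzyme, at 1.03 (adjusted p = 0.0367), a call lost without 0 h replicate 1, 0 h replicate 2, PH replicate 1 or PH replicate 3 (up to 0.198). No member passed in limma among 19 amino acid and ER stress genes (Atf5 at -0.56 with adjusted p = 0.0888, and Dnajb9 at -0.47 with adjusted p = 0.5 and at 0.11 with its second probe set). The same was so for 15 heat shock genes (Hspa1b at -1.58 with adjusted p = 0.266 and Dnajb1 at -0.60 with adjusted p = 0.349). None passed among 10 bile acid genes (Cyp7b1 at -0.39 with adjusted p = 0.686), and Cyp7a1, which catalyses the first step from cholesterol to bile acids, differed by -0.14 (adjusted p = 0.916). None passed among 14 genes of cholesterol and fatty acid synthesis (Hmgcs1 at -0.91 with adjusted p = 0.16 and Elovl6 at 0.71 with adjusted p = 0.0605). A second probe set of Elovl6, a fatty acid elongase, did pass (1.00, adjusted p = 0.0114), and the list had 1 member lower without 0 h replicate 3 and 1 higher without PH replicate 1.

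**Figure D3:**
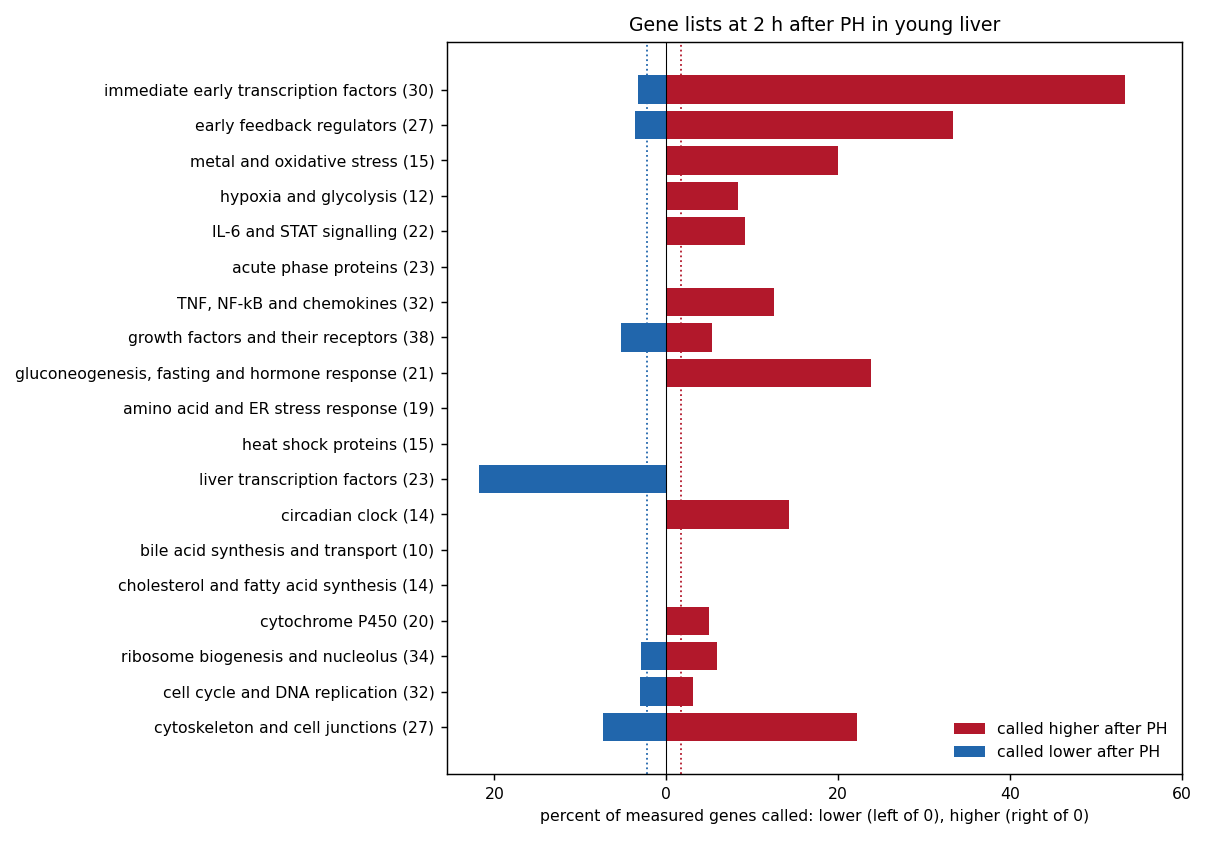
Percent of the measured genes of each of 19 lists (number measured in brackets) that were called higher (right of 0) or lower (left of 0) in young liver 2 h after PH against 0 h. Dotted lines mark the percent of all probe sets called, 1.75% higher and 2.24% lower; the immediate early list has 16 of 30 genes higher and the liver transcription factor list 5 of 23 lower.

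The comparison with sham-operated livers sets PH beside surgery without removal of liver tissue. The sham arrays stood apart as a set, so removal of tissue cannot be told apart here from whatever set these arrays apart. PH livers of 2 h had 569 probe sets (4.58%) above and 725 (5.84%) below the sham livers (3 and 2 arrays), or 653 and 581 with median centring and 723 and 568 in a fit of the compared groups only. The total of 1294 became 109 without sham replicate 2, 548 without sham replicate 1 and 594 without PH replicate 1, and all sham arrays stood apart as described above, whose part was not tested. Immediate early genes had 8 of 30 members higher and 1 lower (median 0.36), and early feedback regulators 5 of 27 higher and 0 lower (median 0.33). Markers of other cells also differed, of which the endothelial genes Cdh5 and Eng were 0.75 (adjusted p = 0.00533) and 0.46 (adjusted p = 0.018) higher after PH. The endothelial gene Vwf differed by -0.37 (adjusted p = 0.0486) with 1 probe set and by 0.36 with the other. The B cell genes Cd79a and Ms4a1 differed by -0.45 (adjusted p = 0.0378) and -0.36 (adjusted p = 0.015), and the bile duct gene Krt19 by 0.85 (adjusted p = 0.00183). Apart from that of Krt19, these marker calls were not refitted without single arrays. The other markers measured for these cell types did not pass. They were Pecam1, Kdr, Tek and Lyve1 of endothelial cells (-0.15, 0.09, 0.31 and -0.01), Cd79b and Jchain of B cells (-0.41 and -0.01), and Krt7 and Epcam of bile ducts (-0.00 and -0.01). Of the endothelial markers Eng had the highest signal in every array. Summed markers after PH and after sham surgery were 1145 to 1314 and 966 to 998 for endothelial cells, 1046 to 1145 and 1343 to 1405 for neutrophils, and 293 to 299 and 379 to 381 for B cells. The beta-actin 3′ control was 12.56 to 12.69 after PH and 11.34 and 11.39 after sham surgery. The part of these cells and of RNA quality in the differences was not tested. Nr4a1 had 8.30, 9.42 and 7.97 after PH, against 6.30 and 6.31 after sham surgery (2.26, adjusted p = 0.00113). Rcan1 had 10.72, 10.57 and 10.16 after PH, against 9.05 and 8.60 after sham surgery (1.66 ± 0.29, adjusted p = 0.000717). Ifrd1 had 8.53, 7.18 and 7.28 after PH, against 5.66 and 5.47 after sham surgery (2.10, adjusted p = 0.000717). For these genes every PH array was above both sham arrays, and the calls held without any single array, as did those of Slc20a1 (1.97, adjusted p = 0.00134), C9orf72 (1.61, adjusted p = 0.000261), Ets2 (1.41, adjusted p = 0.000751), Rcl1 (1.18, adjusted p = 0.000265), Mdm2 (0.63, adjusted p = 0.00259) and the splicing factor gene Sf3b1 (1.69, adjusted p = 0.000857).

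For other early genes the difference from sham surgery did not pass, or lost its call without 1 array. Atf3 had 10.45, 10.33 and 9.36 after PH, against 7.97 and 7.91 after sham surgery (2.10 ± 0.61, adjusted p = 0.0251), and lost this call without PH replicate 1 (0.0893), PH replicate 2 (0.0711), sham replicate 1 (0.104) or sham replicate 2 (0.181). Dusp6 was 1.94 higher after PH than after sham surgery (adjusted p = 0.00614; 0.182 without sham replicate 2). Fos had 8.84, 8.38 and 7.48 after PH, against 6.03 and 5.57 after sham surgery, a difference of 2.43 ± 1.03 that was not past the threshold (adjusted p = 0.114). Egr1 had 9.73, 9.43 and 9.13 after PH, against 8.61 and 8.56 after sham surgery (0.85, adjusted p = 0.4). For both genes the sham arrays lay below all 3 PH arrays.

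In the metal and oxidative stress list, 0 of 15 members passed between PH and sham in limma, and Igfbp1 had 11.69, 11.23 and 11.81 after PH, against 11.35 and 11.41 after sham surgery, a difference of 0.19 (adjusted p = 0.874). Cxcl1 had 10.03, 8.79 and 9.83 after PH, against 10.77 and 10.55 after sham surgery (-1.11, adjusted p = 0.242). Socs3 had 7.96, 7.62 and 7.74 after PH, against 8.38 and 8.25 after sham surgery (-0.54, adjusted p = 0.306). For Cxcl1 and Socs3 both sham values lay above every PH array, without a call. Hhex had 7.45, 7.37 and 6.77 after PH, against 6.62 and 6.22 after sham surgery (0.77, adjusted p = 0.139). Foxa2 had 7.16, 7.14 and 7.03 after PH, against 7.69 and 7.75 after sham surgery (-0.61, adjusted p = 0.0311), a call that ended without any 1 of the 5 arrays (0.0575 to 0.217). It was the lower member among the 23 liver transcription factors, where 1 was higher (median 0.11), Nr1h3, the sterol receptor LXR alpha (0.39, adjusted p = 0.0198), named after its value was seen. Lower after PH than after sham surgery were also Sod1, the cytosolic superoxide dismutase (-1.53, adjusted p = 0.00134), and Id2 (-1.48, adjusted p = 0.00826; 0.0694 without sham replicate 1 and 0.0859 without sham replicate 2).

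Over the probe sets called higher after PH than at 0 h, the median difference was 0.91 against 0 h and 0.57 against sham. Over those called lower, it was -0.45 against 0 h and -0.21 against sham. The comparisons share the PH arrays, so these medians are given side by side and not as a test. Whether the course after PH differed from that after sham surgery was asked of the change from 0.5 to 2 h, PH minus sham. It rests on 3 PH arrays and 2 sham arrays at each time. No probe set passed in limma (0 called, smallest adjusted p = 0.0616), while 747 had an unadjusted p under 0.05. The count was 30 in a fit of the compared groups only, 127 with array weights, and 1 with median centring or without PH 2 h replicate 1.

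The neighbouring times show which increases were recent at 2 h. Livers of 2 h had 75 probe sets (0.604%) above and 52 (0.419%) below those of 1 h. The total of 127 became 13 without PH 1 h replicate 2, 20 without PH 1 h replicate 3 or PH 2 h replicate 1, 33 without PH 2 h replicate 2, 282 without PH 1 h replicate 1, 49 in a fit of the compared groups only, and 1404 with array weights. In the immediate early list 3 of 30 members were higher and 0 lower at 2 h than at 1 h. Ets2 had 8.96, 8.71 and 8.44 at 2 h, against 7.48, 7.16 and 7.17 at 1 h (1.43, adjusted p = 0.000834), and its call held in every setting tried. Gadd45b, a stress-induced relative of Gadd45a, had 9.001, 8.24 and 7.84 at 2 h, against 7.16, 7.23 and 6.86 at 1 h (1.28, adjusted p = 0.000834; 0.0561 in a fit of the compared groups only). Both genes were above every array of 1 h.

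Maff was 1.22 higher at 2 h than at 1 h (adjusted p = 0.00612), a call lost without PH 1 h replicate 2 (0.0731) or PH 2 h replicate 1 (0.0692). Slc20a1 differed by 1.49 (adjusted p = 0.0225) and kept its call only without PH 1 h replicate 1 among these fits (otherwise up to 0.258). Cited2, at -1.34 (adjusted p = 0.0358), likewise kept it only without PH 1 h replicate 1 (otherwise up to 0.3). Fos and Egr1 had their highest mean at 1 h, which for Egr1 was close to its means at 0.5 h and 2 h. The mean of Fos was 4.09 at 0 h, 8.36 at 0.5 h, 9.53 at 1 h, 8.23 at 2 h and 6.61 at 4 h, and that of Egr1 6.94, 9.63, 9.76, 9.43 and 8.92 at the same times. For Fos the difference of 2 h from 1 h, -1.30 ± 0.92, was not past the threshold (adjusted p = 0.533).

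**Figure D4:**
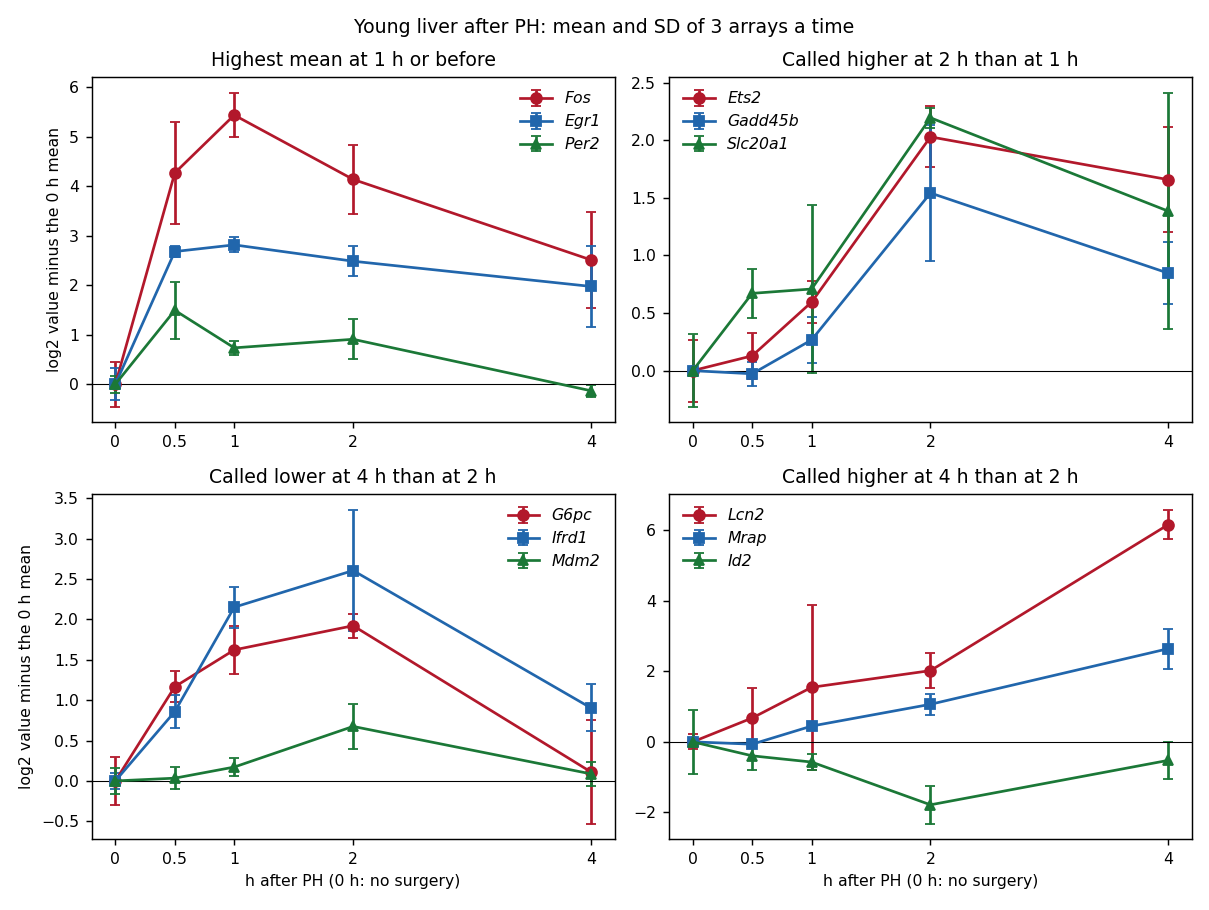
Log2 value minus the 0 h mean of 12 genes in young liver before surgery (0 h) and through the 4 h after PH (mean and SD of 3 arrays at each time). Fos and Egr1 have their highest mean at 1 h and Per2 at 0.5 h, Ets2, Gadd45b and Slc20a1 have theirs at 2 h, G6pc is back near its 0 h level at 4 h, and Lcn2 is highest at 4 h.

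Livers of 4 h had 211 probe sets (1.7%) above and 201 (1.62%) below those of 2 h, or 163 and 223 with median centring. The total of 412 became 123 without PH 2 h replicate 1, 88 without PH 2 h replicate 2, 243 without PH 4 h replicate 1 and 161 without PH 4 h replicate 2. It was 34 with the spike-in covariate, 124 in a fit of the compared groups only and 682 with array weights. Mrap, the accessory protein of the corticotropin receptor, had 10.97, 9.91 and 10.79 at 4 h, against 8.69, 9.29 and 8.96 at 2 h (1.58, adjusted p = 0.000186). Cldn3, a tight junction protein, had 5.94, 6.33 and 6.01 at 4 h, against 7.52, 7.77 and 7.28 at 2 h (-1.43, adjusted p = 3.1e-05). Neither gene overlapped between the times, and both calls held in every setting. Cdkn1a, which had not passed against 0 h at 2 h, was 0.80 higher at 4 h than at 2 h (adjusted p = 0.000145), also in every setting.

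G6pc had 9.90, 11.02 and 11.00 at 4 h, against 12.62, 12.37 and 12.35 at 2 h (-1.81, adjusted p = 0.000784; 0.0831 with the spike-in covariate). Its means were 10.53 at 0 h, 11.69 at 0.5 h, 12.15 at 1 h, 12.45 at 2 h and 10.64 at 4 h. Ifrd1 differed by -1.70 (adjusted p = 0.00309; 0.0511 without PH 2 h replicate 1). Among acute phase genes 2 of 23 were higher at 4 h than at 2 h and 0 lower (median 0.55). Lcn2 had 10.57, 10.92 and 11.40 at 4 h, against 6.95, 6.29 and 7.24 at 2 h. This gap of 4.14 (adjusted p = 0.0433) left no overlap, but the call ended without any 1 of the 6 arrays (0.0588 to 0.164). Serpina3n, a serine protease inhibitor, was 1.19 higher (adjusted p = 0.0159) and lost its call without PH 2 h replicate 1 (0.0563), PH 2 h replicate 2 (0.0726), PH 4 h replicate 2 (0.0561) or PH 4 h replicate 3 (0.0508).

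Old livers offer group means that the young comparison did not use, although their arrays entered the shared estimate of the spread. Old livers 2 h after PH had 377 probe sets (3.03%) above and 273 (2.2%) below old livers of 0 h. Of the 218 probe sets higher in young livers, 215 (98.6%) had a positive difference in old livers, where 52.1% of all probe sets did, and the median difference was 0.74 in old and 0.91 in young livers. Of the 278 lower in young livers, 255 (91.7%) had a negative difference in old livers, where 47.9% of all did, with medians of -0.24 in old and -0.45 in young livers. The young values were those that chose the probe sets, so that a larger size in young livers is built into these medians. Rcan1 differed by 3.42 in old livers, C9orf72 by 3.02, Mt2 by 5.10, Igfbp1 by 3.99, Atf3 by 3.12 and Hhex by -2.62. The immediate early list had 15 of 30 members higher and 1 lower in old livers, the feedback list 10 of 27 higher and 1 lower, and the liver transcription factors 0 of 23 higher and 6 lower.

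The difference of the PH change between old and young livers was tested directly. No probe set passed in limma (0 called, smallest adjusted p = 0.0734), and 652 had an unadjusted p under 0.05. The count was 1 with median centring, in a fit of the compared groups only, with 1 probe set per gene, without old 0 h replicate 1 or without young PH replicate 2, and 4 without old PH replicate 2. The smallest adjusted p was that of Krt19, which had 4.94, 5.24 and 5.03 in old livers after PH, against 4.88, 5.13 and 4.89 in old livers at 0 h (0.11, adjusted p = 0.772). The old groups overlapped, whereas the young groups did not, and the change was 1.13 ± 0.21 smaller in old livers. Krt19 was the probe set called with median centring, with 1 probe set per gene and without young PH replicate 2, and 1 of those called without old PH replicate 2. Fos and Egr1 differed by 1.65 (adjusted p = 0.343) and 0.65 (adjusted p = 0.589) in old livers. The test of the difference from young livers did not pass for Fos (-2.49, adjusted p = 0.922).

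**Figure D5:**
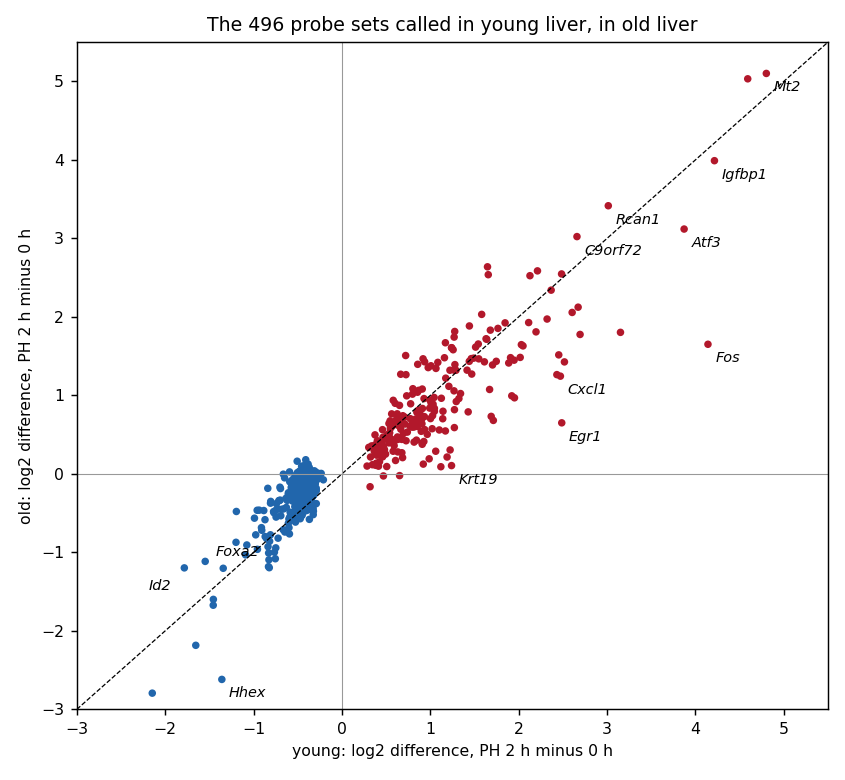
Log2 difference, PH 2 h minus 0 h, in old livers (y axis) against the same difference in young livers (x axis) for the 496 probe sets called in young livers, with a dashed line where both are equal. Of the points right of 0, 215 of 218 lie above 0 in old livers; Krt19, Egr1 and Fos lie below the line.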

How the data were processed

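The authors deposited log2 values computed with RMA, per the submitters' processing notes, for 46 Affymetrix arrays of mouse liver in 18 groups of age, operation and time. By its usual steps RMA subtracts background, quantile-normalises arrays and summarises each probe set. The version used is not given in the sources used here, nor the set of arrays it was run on. Array medians of all 46 lay between 6.22 and 6.33, no 2 of the 6 arrays compared were alike (smallest median absolute difference 0.112), and no value was transformed further. Arrays have no read depth, and their number limits the precision.

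Of 12488 probe sets, 66 controls were left out and 12422 tested. By the platform annotation 10833 carried 1 gene symbol, 396 several and 1193 none, and 16 symbols were not found in the gene table. A gene was named only from a probe set with 1 symbol, and given by its probe set of highest mean. All arrays entered 1 linear model of 18 group means (lmFit and eBayes, limma 3.58.1 in R 4.3.3), with 28 residual and 5.09 prior degrees of freedom. Comparisons were contrasts between those means, with Benjamini-Hochberg adjustment over all probe sets tested, and a probe set passed at an adjusted p under 0.05. Errors of differences are standard errors. The script was tested on simulated data first.

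The group, the 19 gene lists and the rule for named genes were chosen with earlier results of these data known. The rule named the 15 highest and 12 lowest called genes, up to 4 called members of a list in each direction (2 as values where none was called), 8 in each direction of the other comparisons and the 10 smallest adjusted p of the age difference. Symbols were matched to RefSeq promoters of build GRCm38.p6. Alternatives were median centring, the dimmest 25% of probe sets left out, trend and robust settings, the compared groups alone, 1 probe set per gene, leaving out 2808 probe sets whose suffix marks cross-hybridisation, the replicate block, array weights, the spike-in mean as a covariate and leaving out each array. Leaving out all sham arrays, list counts under 4 of these settings, and fits without 1 array for Alb, Klf6, Nr4a2 and Irs2 were added after seeing the data. The setting without letter suffixes did not cover Igfbp1, Atf3, Actb, Gja1, Nr2f2 and Polr1c, among others, which are given by such probe sets. Same-numbered PH and 0 h arrays did not deviate together (correlations -0.0885 to 0.0806), so they were treated as unpaired.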

Additional observations from a re-analysis of the deposited data

Results flagged for a closer look

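In 7 of the named genes, all 3 young arrays 2 h after PH moved one way against the young 0 h mean and all 3 old arrays moved the other way against the old 0 h mean. The test of the age difference passed for none of them. The differences below are the old change minus the young change on the log2 scale. Zbtb16, a zinc-finger factor induced by glucocorticoids, differed by 2.68 (limma adjusted p = 0.594), with changes of 1.99 in old and -0.69 in young livers. Socs2, a feedback inhibitor of growth hormone signalling, differed by 2.41 (adjusted p = 0.689), with 1.07 in old and -1.33 in young livers. Nr0b2, the bile acid-induced repressor SHP, differed by -1.39 (adjusted p = 0.613), with -0.77 in old and 0.62 in young livers. The remaining 4 were the chaperone gene Dnajb9 at 0.99 (adjusted p = 0.919), Mdfic at 0.81 (adjusted p = 0.594), Zfp746 at 0.78 (adjusted p = 0.538) and Cyp1a1 at 0.51 (adjusted p = 0.613). The young changes of Mdfic, Zfp746 and Cyp1a1 were small, at -0.40, -0.09 and -0.16. In young livers a second probe set of Dnajb9 differed by 0.11 between PH and 0 h, against -0.47 for the probe set used, so the young movement was not shared by both.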

How the results depend on the processing

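No called difference of a named gene changed its sign between settings in the comparison of PH with 0 h. There, 47 of 75 calls of named genes passed without any single array and in every setting that kept their probe set. The spike-in covariate ended 12. The 496 calls against 0 h became 2103 with array weights and 249 to 479 without 1 array. The 127 calls against 1 h became 49 with the compared groups alone, 1404 with array weights, 50 with sham arrays left out and 13 to 282 without 1 array. The 412 calls between 4 h and 2 h became 124 with the compared groups alone, 682 with array weights, 34 with the spike-in covariate, 238 with sham arrays left out and 88 to 421 without 1 array. The 1294 calls between PH and sham became 3036 with array weights and 109 to 1127 without 1 array. For the change from 0.5 to 2 h, PH minus sham, the 0 calls became 1 with median centring, 30 with the compared groups alone, 127 with array weights and 0 to 1 without 1 array. For old minus young, the 0 calls became 1 with median centring, the compared groups alone or 1 probe set per gene, and 0 to 4 without 1 array. Of named calls, 2 of 25 against 1 h, 7 of 32 between 4 h and 2 h and 14 of 38 between PH and sham held in every setting. Settings that left out dim probe sets or those with a letter suffix did not cover the genes given by such probe sets. The causes of these changes in count were not tested.

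With the replicate number as a block, the counts were 500 against 0 h, 146 against 1 h, 398 between 4 h and 2 h, 1106 between PH and sham and 0 for both differences of changes. The block ended 3 of the named calls between PH and sham (adjusted p of 0.0538 to 0.0618). The arrays share only a number. No array here has more than 2 others of its group, and a lone sham array left by leaving out the other is assumed to vary like the other groups.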
